A study of Rattus norvegicus with 6 samples.

Results

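Genes of fatty acid synthesis, storage and transport were followed on 6 two-colour arrays of mouse liver RNA. The group has 6 genes, namely malic enzyme 1 (Me1), fatty acid binding protein 5 (Fabp5), thyroid hormone responsive protein (Thrsp), fatty acid synthase (Fasn), perilipin 2 (Plin2, also named adipose differentiation-related protein) and stearoyl-Coenzyme A desaturase 1 (Scd1). Each was found as 1 clone among the 6240 clones of the array. The genes come from the study's list of genes induced by thyroid hormone (triiodothyronine, T3), and a gene was given the clone whose mean ratio in wild type mice equalled the listed ratio. A clone was taken as equal when it lay within 0.005 of the listed ratio, and all 6 genes met exactly 1 clone. The members were thus chosen by their values on the T3 arrays of wild type mice, which are given as a description with no test.

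All mice were hypothyroid. In the first comparison, livers of wild type mice 2 h after T3 were set against livers of untreated wild type mice. The second set T3-treated (2 h) against untreated mice that lack the β form of the thyroid hormone receptor (TRβ-/-), and the last set untreated TRβ-/- against untreated wild type mice. Each comparison was hybridised on 2 arrays. The labels give pools of 5 mice for the wild type T3 and the genotype comparisons and no pool size for T3 in TRβ-/- mice. For the T3 study the methods also give 5 mice under the design, but a larger number of treated mice under the hybridisation. For the wild type experiment the methods describe male mice 3 months old, of the hybrid strain 129/Sv X C57Bl76J as printed there, and an injection of 5 μg T3 together with 5 μg T4 (thyroxine), so the treatment is not T3 alone. The controls are described as hypothyroid only, and no injection of vehicle is named for them. The clones on the array are rat cDNAs, and the RNA was from mice, although the samples are labelled as rat. In whole liver, fewer cells of a type and less RNA per cell cannot be told apart. The tissue could not be checked against marker genes, since no table used here pairs the other clones with genes.

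Thyroid hormone acts through nuclear receptors that sit on DNA and, depending on the ligand, raise or lower transcription. TRβ is the main form of these receptors in the liver, and TRα is also present there. Hepatic lipogenesis is a classical target of the hormone. Malic enzyme makes NADPH, fatty acid synthase uses it to build palmitate, and stearoyl-Coenzyme A desaturase puts a double bond into the product. Thrsp, also called Spot 14, is a small protein that promotes lipogenesis and was first described as a rapid T3 response gene in rat liver. Perilipin 2 coats lipid droplets, and Fabp5 carries fatty acids in the cytosol. Sterol regulatory element-binding proteins (SREBPs) are further activators of several of these genes.

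Promoter sequences of the genes were searched for a few short motifs. RefSeq positions and sequences of the rat genes (build GRCr8) are given because the array clones are rat. All 6 genes were matched to a RefSeq gene, and a promoter entry was found for 4 of them, which leaves Fasn and Fabp5 without one. The rat symbol of Scd1 is Scd. Me1 lies on chromosome 8 (96429057 to 96540244), Fabp5 on chromosome 2 (93672451 to 93676186), Fasn on chromosome 10 (106570415 to 106588581) and Plin2 on chromosome 5 (106202634 to 106258748). Thrsp (161134640 to 161138964) and Scd (253218968 to 253232101) are both on chromosome 1, far from each other. The 250 bases before the start that the promoter table uses are shown 5′ to 3′, with the matches to 7 motifs in capitals, for Me1 (chr8:96540245-96540494, minus strand), Thrsp (chr1:161138965-161139214, minus strand), Plin2 (chr5:106229019-106229268, minus strand) and Scd (chr1:253231732-253231981, minus strand). The windows of Me1 and Thrsp lie just outside the span of the gene, and those of Plin2 and Scd lie inside it, so these latter starts are not the outermost ones.
Me1: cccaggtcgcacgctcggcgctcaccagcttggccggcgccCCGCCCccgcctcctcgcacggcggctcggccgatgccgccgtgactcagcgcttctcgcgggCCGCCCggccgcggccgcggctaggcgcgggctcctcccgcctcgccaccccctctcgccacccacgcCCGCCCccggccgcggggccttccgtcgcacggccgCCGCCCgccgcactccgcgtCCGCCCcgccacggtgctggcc
Thrsp: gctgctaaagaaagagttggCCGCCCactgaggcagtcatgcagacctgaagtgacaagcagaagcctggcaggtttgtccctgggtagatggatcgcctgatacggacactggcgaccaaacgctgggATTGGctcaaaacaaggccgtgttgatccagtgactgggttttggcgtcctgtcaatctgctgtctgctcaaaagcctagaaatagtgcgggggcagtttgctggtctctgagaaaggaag
Plin2: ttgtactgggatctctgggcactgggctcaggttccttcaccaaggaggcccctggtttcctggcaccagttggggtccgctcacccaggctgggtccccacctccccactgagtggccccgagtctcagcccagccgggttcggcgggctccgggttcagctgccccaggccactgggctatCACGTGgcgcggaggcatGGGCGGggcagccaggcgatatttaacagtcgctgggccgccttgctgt
Scd: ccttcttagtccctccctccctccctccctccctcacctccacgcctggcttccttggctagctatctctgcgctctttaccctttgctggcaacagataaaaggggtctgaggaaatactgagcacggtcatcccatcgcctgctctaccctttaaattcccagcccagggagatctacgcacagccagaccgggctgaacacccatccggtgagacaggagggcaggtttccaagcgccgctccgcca

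The motifs were searched on both strands. They were the TATA box (TATAAA), the CCAAT box (CCAAT), the GC box (GGGCGG), the sterol regulatory element (TCACNCCAC), the E-box (CACGTG), the thyroid hormone receptor core motif (AGGTCA) and its direct repeat with a spacer of 4 bases, which holds the core motif as a part. The Me1 promoter held 5 GC boxes and no other of these motifs, and 83.2% of its bases were G or C, against a median of 51.2% over the 33465 promoters searched. A GC box stood in 30.5% of those promoters. The Thrsp promoter held a CCAAT box 121 bases before the start and a GC box 230 bases before it, with 54% G or C. A CCAAT box was found in 34.0% of all promoters. In the Plin2 promoter a GC box was found 49 bases and an E-box 67 bases before the start, and 5.59% of all promoters held an E-box. The second Plin2 promoter of the table and the Scd promoter held none of the 7 motifs. The sterol regulatory element stood in 0.974% and the core motif in 14.1% of all promoters, and neither was in these windows of the 4 genes. These are matches of letters in a window of 250 bases of the rat genome and not binding sites. For a motif as rare as the sterol regulatory element, absence from so few windows says little. The study searched regions conserved between mouse and human with matrix models. It reports more putative SREBP sites around the start in T3-induced genes than in control genes. For thyroid hormone response elements it found no significant excess near the start, and it does not exclude that such elements exist. Me1, Fabp5, Fasn and Plin2 were among the genes of that search.

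The clone of each gene was looked for among 3247 clones with a value on both wild type T3 arrays. The 3 most induced genes stand alone. Clone RNABS36, taken as Me1, had a mean ratio of 7.86, and the next clone to the listed ratio was 1.04 away. Clone RNABR39, taken as Fabp5, had a ratio of 6.59 with the next clone 0.229 away, and clone RNAC07, taken as Thrsp, had 5.69 with the next 0.167 away. For these 3 genes no second clone lay within 0.1 of the ratio. The ratios of the others lie where clones are denser. Within 0.1 of the ratio there were 8 clones for Fasn, 9 for Plin2 and 12 for Scd1. Clone RGIAE69, taken as Fasn, had a ratio of 3.55 and RGIAT38, taken as Plin2, had 2.93, with the next clones 0.0132 and 0.0199 away. The assignment of RGIAE62 to Scd1, at 2.53, is the least secure, because clone RNABC37 lay 0.00563 from the listed ratio, just outside the limit. The matched clone farthest from its listed ratio, that of Thrsp, lay 0.00364 from it. With the sign of the wild type values turned, clones met the listed ratio for 2 of the 6 genes, so the arrays were read as T3 over untreated. The names rest on equal ratios and not on clone annotation. Desaturases and fatty acid binding proteins are families of related sequences, and the clones of Scd1 and Fabp5 may also bind RNA of relatives.

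**Figure D1:**
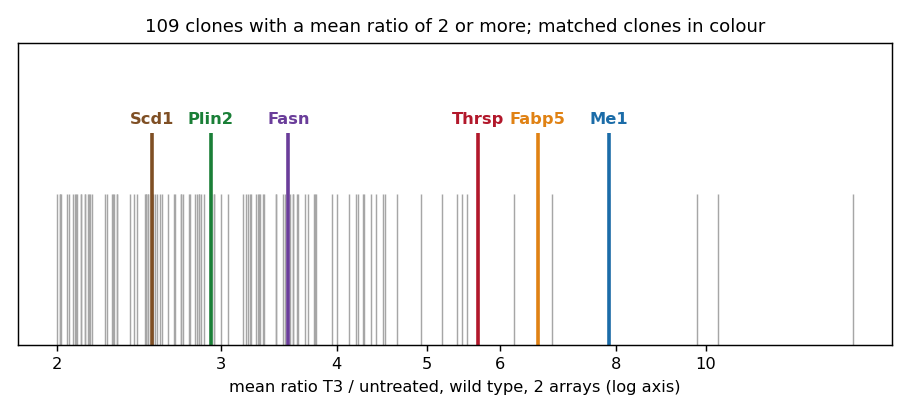
Mean ratio of T3-treated over untreated wild type liver (log axis, 2 arrays) for the 109 clones at 2 or more, each a line, with the 6 matched clones in colour. Me1 at 7.86, Fabp5 at 6.59 and Thrsp at 5.69 stand apart from other clones, while Fasn, Plin2 and Scd1 lie in the dense part between 2.5 and 3.6.

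In hypothyroid wild type mice all 6 genes were past 2-fold on each array, which the choice of the genes fixes. Of all 3247 clones, 80 (2.46%) were that high. The values of all 3 lipogenic enzymes, the regulator Thrsp, the fatty acid carrier Fabp5 and the droplet protein Plin2 were above those of untreated mice. Me1 was highest, with log2 ratios of 2.78 on array 1 and 3.17 on array 2, a mean of 2.97 ± 0.28 (SD of 2 arrays), and only 3 clones of the 3247 had higher means. Fabp5 gave 2.60 and 2.84 (mean 2.72 ± 0.17), and Thrsp 2.28 and 2.73 (mean 2.51 ± 0.32). In all 3 of these genes array 2 gave the higher value. Fasn was at 1.79 and 1.86 (mean 1.83 ± 0.048), which places it 36th from the top. Plin2 gave 1.52 and 1.58 (mean 1.55 ± 0.045) and Scd1 1.28 and 1.40 (mean 1.34 ± 0.082). Array 2 was higher for these genes too. Between neighbours in this order, the values of the 2 arrays overlapped for Me1 and Fabp5 and for Fabp5 and Thrsp, and they did not overlap from Thrsp to Fasn, from Fasn to Plin2 or from Plin2 to Scd1. Both arrays hybridised pooled RNA, so the SD covers hybridisations and not mice.

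The arrays of the receptor knockout were not used to choose the genes, and they ask how the same clones behave with T3 when TRβ is missing. Their direction is not settled. Array 1 names the treated mice in channel 1 and array 2 names them in channel 2, while the deposited values of both arrays run the same way (Pearson correlation 0.703 over 1635 clones). The methods mention dye swaps in all studies, and swapped arrays whose ratios were turned to one direction would also run the same way. As deposited, the TRβ-/- arrays correlated with the wild type T3 arrays at 0.476 to 0.615. The values are given as deposited, and with the sign turned each of them changes sign. Both titles speak of effects of T3, but neither title nor channel says which way the ratio was taken. In both readings the members divide. Me1, Plin2 and Scd1 have one sign, and Thrsp has the other.

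**Figure D2:**
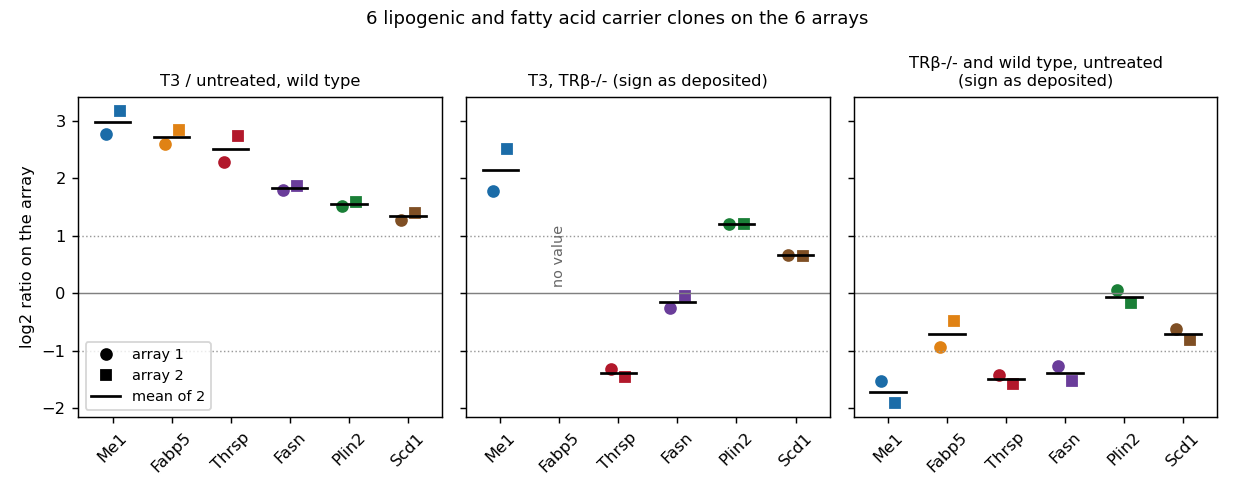
Log2 ratio of the 6 clones on array 1 (circles) and array 2 (squares) of each comparison, with the mean as a black line and 2-fold as dotted lines. All 6 are above 1 in wild type mice. In TRβ-/- mice, as deposited, Me1 and Plin2 are above 1, Scd1 is between 0 and 1, Fasn is near 0 and Thrsp is below -1, and in the genotype comparison Me1, Thrsp and Fasn are below -1. Fabp5 has no value on the TRβ-/- T3 arrays.

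Me1, the source of NADPH, had deposited log2 ratios of 1.78 and 2.51 with T3 in TRβ-/- mice, a mean of 2.15 ± 0.51 (SD of 2 arrays). This is a 4.43-fold difference, the 19th highest mean of 1635 clones, and it passed limma's test over all clones (adjusted p = 0.0249). The 2 arrays differ here by more than for any other member, and both lie beyond 2-fold. Plin2, the lipid droplet protein, gave 1.20 and 1.21, a mean of 1.20 ± 0.0066, which is 2.30-fold (limma, adjusted p = 0.0256). Its arrays lie within 0.01 of each other on the log2 scale. Scd1 gave 0.67 and 0.64, a mean of 0.66 ± 0.020 or 1.58-fold, and did not pass (limma, adjusted p = 0.0953). It passed in a fit over all 6 arrays (limma, adjusted p = 0.00859, with a range of 0.00859 to 0.103 over the alternatives). Both arrays put Scd1 on the side of Me1 and Plin2, below the 2-fold line.

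Thrsp had the opposite sign. Its deposited log2 ratios were -1.32 and -1.45, a mean of -1.38 ± 0.097, or 2.61-fold in size (limma, adjusted p = 0.0195). Only 15 of the 1635 clones had a lower mean. Thus the clone of a classical T3 response gene and that of Me1 changed in opposite directions on the same 2 arrays, whichever way the ratio runs. Fasn, the synthase itself, was at -0.25 and -0.058, a mean of -0.16 ± 0.14, and did not pass (limma, adjusted p = 0.580). Its mean was 1191st from the top of the 1635 clones and 957th by size. Fabp5 was without a value on both TRβ-/- T3 arrays, where 2270 and 1690 clones had one.

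Of the 5 members measured in TRβ-/- mice, 2 were at least 2-fold on the positive side of both arrays and 1 on the negative side. Among all 1635 clones these shares were 2.81% and 1.53%. By limma 2 members passed on the positive and 1 on the negative side, against 2.63% and 1.77% of all clones. The median of the 5 members was 0.66, and the median of all clones was 0.017. Whether the arrays hold RNA of the same mice is not known, so these p-values measure the spread of hybridisations.

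The response in both genotypes can be set side by side, since by their labels the T3 arrays of wild type and of TRβ-/- mice share no RNA. Between the genotypes the difference itself was not tested, because the wild type values chose the genes. Me1 had a mean log2 ratio of 2.97 in wild type and 2.15 in TRβ-/- mice, and the arrays of each genotype did not overlap with those of the other. Plin2 had 1.55 and 1.20, and Scd1 had 1.34 and 0.66. For these genes the deposited TRβ-/- value was nearer to 0 than the wild type value on every array. The genes were chosen for high wild type values, which favours this order, so it does not measure a weaker response in TRβ-/- mice. How many other raised clones show the same order was not counted. Thrsp had 2.51 and -1.38, and Fasn had 1.83 and -0.16. As deposited, the value of Fasn in TRβ-/- mice was thus close to no change, a statement that holds with either sign.

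The members can also be placed among the other induced clones. Of 1625 clones with values on all 4 T3 arrays, 47 were past 2-fold on each wild type array with T3 higher. Of these 47, 42 were above 0 on both TRβ-/- arrays as deposited, 28 of them at least 2-fold, and 4 were below 0 on both. Among all 1635 clones with both TRβ-/- values, 35.4% were above 0 on both arrays and 31.1% below. At least 2-fold were 2.81% on the positive and 1.53% on the negative side. The 4 include Thrsp and Fasn, beside the unnamed clones RGIAM95 and RGIAI45, with means of -0.83 and -0.39. Thrsp was the only clone of the 47 that was at least 2-fold on the negative side of both TRβ-/- arrays. The share of all clones that low, 1.53%, is not the share to expect among these 47. The T3 arrays of the genotypes correlated positively as deposited, and 42 of the 47 were above 0. Whether 1 clone among 47 is unusual was not tested. If the TRβ-/- sign is turned, Thrsp would be the only one of them raised at least 2-fold in both genotypes. In that reading 28 of the 47 clones would be lowered at least 2-fold with T3 in TRβ-/- mice.

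**Figure D3:**
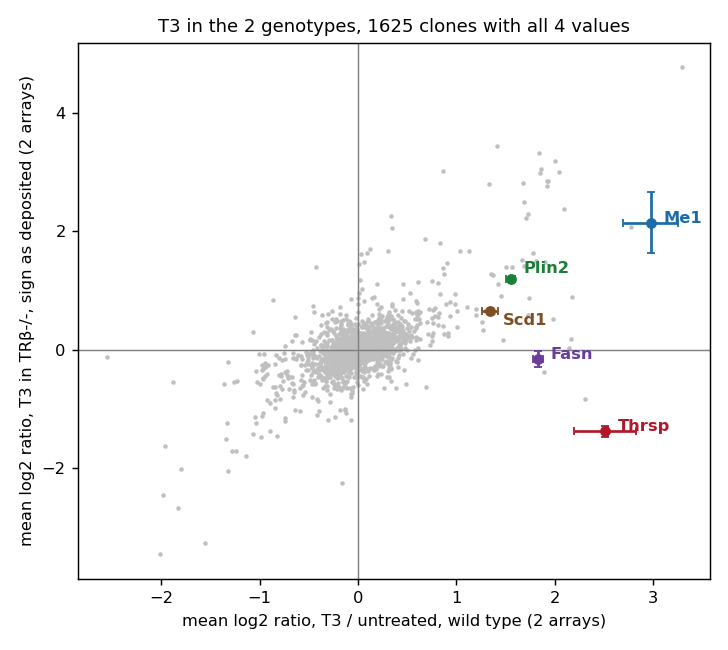
Mean log2 ratio with T3 in wild type mice (horizontal) and in TRβ-/- mice as deposited (vertical) for 1625 clones with all 4 values in grey and 5 members in colour, with bars of 1 SD of 2 arrays. Me1 (2.97, 2.15) and Plin2 (1.55, 1.20) lie in the upper right, Fasn (1.83, -0.16) near the horizontal line and Thrsp (2.51, -1.38) below it.

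The genotype comparison asks how the genes stood in untreated hypothyroid mice with and without the receptor. On both arrays the labels put wild type in channel 1 and TRβ-/- in channel 2. Read as channel 2 over channel 1, as the wild type T3 arrays are, the ratio would be TRβ-/- over wild type. The titles of the 2 arrays name opposite orders, though, and array 1 was negatively correlated with array 1 of the wild type T3 comparison (Pearson -0.40 over 2946 clones) while both have untreated wild type RNA in channel 1. The other 3 pairs of a genotype and a wild type T3 array correlated at -0.087, -0.16 and -0.27. The direction is therefore not settled and the sign is that of the deposited values. The genotype arrays correlated with each other at 0.358 over 3095 clones, lower than the other pairs. They also name the same untreated mice as the T3 arrays of each genotype, so their values are not independent of those arrays.

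Me1, Thrsp and Fasn changed together between the genotypes. Me1 had deposited log2 ratios of -1.54 and -1.91, a mean of -1.72 ± 0.26, which is 3.30-fold in size (limma, adjusted p = 0.0256). Thrsp had -1.42 and -1.59, a mean of -1.50 ± 0.12 or 2.83-fold (limma, adjusted p = 0.0276), and Fasn -1.26 and -1.52, a mean of -1.39 ± 0.18 or 2.63-fold (limma, adjusted p = 0.0378). The 3 means rank 7th, 10th and 12th from the lowest of 3095 clones. These arrays also hybridised pooled RNA, so the p-values and SDs of the genotype comparison measure the spread of hybridisations and not of mice. The arrays of Me1 and Thrsp overlapped, as did those of Thrsp and Fasn, while those of Me1 and Fasn did not. Read as TRβ-/- over wild type they were lower in TRβ-/- mice, and with the sign turned they were higher.

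The other members were smaller in size. Scd1 had -0.62 and -0.82, a mean of -0.72 ± 0.14 or 1.65-fold, and Fabp5 had -0.94 and -0.48, a mean of -0.71 ± 0.32 or 1.64-fold. Neither passed (limma, adjusted p = 0.179 and 0.250). Scd1 passed in a fit over all 6 arrays (limma, adjusted p = 0.0216), which could not take in Fabp5, and did not pass there with the array number as a block (limma, adjusted p = 0.0764). Over all alternatives its adjusted p by limma ran from 0.000402, in a fit that gave all members 1 common SE, to 0.179. Their signs were those of Me1 on both arrays. Plin2 had 0.050 and -0.17, a mean of -0.060 ± 0.16 with opposite signs on the arrays (limma, adjusted p = 0.952). It was the only member without the same sign on both arrays.

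Thus 5 of the 6 members were negative on both genotype arrays as deposited and none was positive on both, while 28.1% of all 3095 clones were negative on both and 26.7% positive. On both arrays 3 members were at least 2-fold on the negative side, against 15 of all clones (0.485%), and none on the positive side, against 0.388%. By limma the same 3 genes passed, against 0.355% of all clones on the negative side and 0.258% on the positive side. The median of the 6 members was -1.06, and that of all clones was -0.011. All clones are not a neutral background here, because these arrays name the same untreated wild type mice as the arrays that chose the members. Every pair of a genotype and a wild type T3 array correlated negatively, so the choice itself favours negative values. The share among clones raised by T3 in wild type was not counted, and the counts are a description. The SD of the members ran from 0.12 to 0.32, and the median SD of all clones was 0.17.

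**Figure D4:**
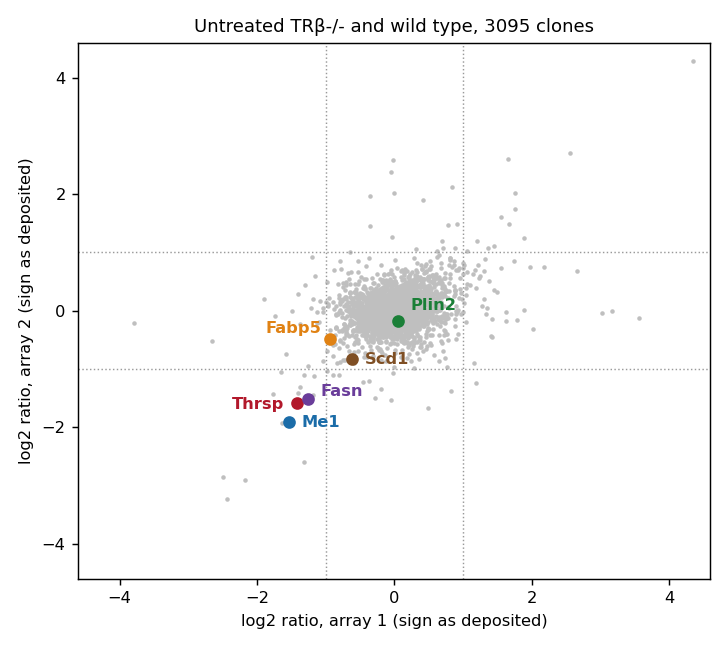
Log2 ratio on array 1 (horizontal) and array 2 (vertical) of untreated TRβ-/- and wild type liver as deposited, for 3095 clones in grey and the 6 members in colour, with 2-fold as dotted lines. Me1, Thrsp and Fasn lie below -1 on both arrays, Fabp5 and Scd1 between -1 and 0, and Plin2 among the bulk of clones at 0.050 and -0.17.

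Together the 4 arrays that did not choose the genes give each member its own pattern, which is printed here as deposited. Me1 was past 2-fold with T3 in TRβ-/- mice and, with the other sign, between genotypes. Thrsp was past 2-fold in both with the same sign, Fasn past it between genotypes and under it with T3, and Plin2 past it with T3 and under it between genotypes. Scd1 was under 2-fold in both. Since the comparisons share untreated TRβ-/- mice by their labels, the 2 values of a gene are not independent. Of the unnamed clones, RGIAQ69 and RNABI57 were nearest to the median profile of the 5 members on these 4 arrays, with distances of 0.287 and 0.418 on the log2 scale among 1628 clones. Their means were 0.52 and 0.89 with T3 in TRβ-/- mice and -1.32 and -1.34 between genotypes, beside 0.66 and -1.39 for the members' median. No member has this median profile, and the members are not all near each other. In order of distance from Me1, Thrsp came 1575th among the 1628 clones. From Thrsp, Fasn came 8th, but from Fasn, Thrsp came 175th at the same distance. Such a rank thus depends on the clone from which it is counted.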

How the data were processed

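Mouse liver RNA was hybridised in 2 colours to arrays of rat cDNA clones, 2 arrays for each of 3 comparisons. The authors measured spot intensity with GenePix Pro, flagged away spots under 2 times their background, took off the local background and applied Lowess normalization with the SMA package within each array. Tool versions: not given in the sources used here. Per clone and array, the deposited file holds 1 log2 ratio and no intensity, so neither dyes nor signal above background were examined, and precision is limited by the number of arrays. The array medians lay between -0.0032 and 0.015. Clones were matched to genes by 2 to the power of the mean log2 ratio of the wild type T3 arrays, with a tolerance of 0.005, and a gene with over 1 clone would have been dropped. The listed ratios were used for this match alone. Members, lists and motifs were chosen with earlier results of these data known.

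A clone counted as past 2-fold when both arrays had log2 ratios of 1 or more, or both of -1 or less, as in the study's methods. In limma the mean of the 2 arrays was tested against 0, with Benjamini-Hochberg adjustment over all clones with both values. That step was tested on simulated data. The named genes were the 6 matched genes, the 2 unnamed clones nearest by Euclidean distance on the 4 other arrays, and the clones next to each ratio. RGIAM95 and RGIAI45 were named after their values were seen. Gene lists and cell type markers were not run, since no table used here pairs other clones with genes. Alternatives were other cutoffs and tolerances, centring, scaling, single arrays and other limma fits. The software was limma 3.58.1 in R 4.3.3, and pandas 2.3.3, numpy 2.4.6 and matplotlib 3.10.9 in Python 3.11.15.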

Additional observations from a re-analysis of the deposited data

Results flagged for a closer look

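Thrsp and Fasn had opposite signs in the genotypes on every T3 array as deposited. With T3, the mean log2 ratio of Thrsp was 2.51 in wild type and -1.38 in TRβ-/- mice, and that of Fasn was 1.83 and -0.16. The difference was not tested, and Fasn did not pass limma's test in TRβ-/- mice (adjusted p = 0.580). The direction of the TRβ-/- arrays is not settled. With their sign turned Thrsp and Fasn would have the same sign in both genotypes, and Me1, Plin2 and Scd1 opposite signs.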

How the results depend on the processing

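Centring, scaling, the mean rule and single arrays left 6, 3 and 3 members past 2-fold with T3 in wild type, with T3 in TRβ-/- and between genotypes (single arrays: 6 to 6, 3 to 3 and 3 to 3). The counts were 6, 4 and 4 at 1.5-fold, and 4, 1 and 0 at 3-fold. By construction a lower cutoff cannot give fewer members and a higher one cannot give more, but the sizes of these changes are not fixed. A tolerance of 0.01 matched 5 genes, without Scd1. A tolerance of 0.0025 matched 3 (Fabp5, Fasn and Plin2), of which 3, 1 and 1 were past 2-fold. Means of linear ratios also matched 3 genes (Fasn, Plin2 and Scd1), and the turned sign matched 1 (Scd1). By limma 3 members passed in each of the TRβ-/- T3 and genotype comparisons. In 1 fit over all 6 arrays 4 and 4 passed, and with the array number as a replicate block 4 and 3. The added member was Scd1. Over all clones the TRβ-/- T3 calls rose from 72 to 262 without the block and to 167 with it, over 1619 clones. The genotype calls were 19, and 42 and 26 in these fits. Restricted to clones measured on all 6 arrays, limma gave every member it held the same SE in the genotype comparison (0.1645). The spread between a member's own 2 arrays thus did not enter its p-value there. In that fit 4 members and 123 clones passed, and why limma set a common SE was not tested. Deviations of arrays with the same number correlated at 0.396 between the T3 comparisons and at -0.44 and -0.46 between each of these and the genotype comparison. These are not near 0 and differ in sign, the labels name no batch behind the number, and the block was kept as an alternative. Scaling moved 5 wild type values by over 1 SD. Plin2 between genotypes was -0.17 on array 2 alone and changed sign on array 1 alone (0.050). No other single-gene value changed sign under these alternatives. Spots without a value, such as those of Fabp5 in TRβ-/- mice, set no limit on its RNA level.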
